A study of Mus musculus with 10 samples.

Results

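The genes of the mitochondrial protein import complexes TOM and TIM (translocases of the outer and of the inner membrane) were followed in RNAseq of interscapular brown adipose tissue (iBAT). The set was chosen with earlier results of these data known. Its members were taken by name: every gene in the count tables whose symbol begins with Tomm or Timm and a digit, pseudogenes left out. This gave 26 of 55414 genes, namely 11 Tomm genes, of which Tomm6os is an antisense RNA, and 15 Timm genes. The comparison was between 5 Cre+ and 5 Cre- male C57BL/6J mice on normal chow, aged 12 to 14 weeks. Cre+ mice carried RetSat flox/flox with Ucp1-Cre (+), and Cre- mice carried RetSat flox/flox with Ucp1-Cre (-), so that the floxed alleles of retinol saturase were common to both groups. Cre was driven by the Ucp1 promoter, which directs the deletion to cells that express Ucp1, and the cell types of the tissue were not measured apart. The comparison asks whether loss of RetSat in brown adipocytes goes along with other levels of the import genes. Only Cre+ mice carried Ucp1-Cre, so an effect of the transgene itself cannot be told apart from loss of RetSat. In such bulk samples, fewer cells of a type and less RNA per cell cannot be told apart.

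Nearly all mitochondrial proteins are made in the cytosol and enter through the TOM complex, whose pore is the beta barrel Tom40. Precursors with a cleavable presequence go on through TIM23 into the matrix or the inner membrane. Carrier proteins of the inner membrane, the family to which uncoupling protein UCP1 of brown fat belongs, are guided through the intermembrane space by small TIM chaperones and inserted by TIM22.

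The small TIM chaperones share a feature that the choice by name did not use, a pair of twin cysteine motifs, each with 3 codons between its cysteines. The stretch from the first to the last of these 4 codons is shown for the 6 members that carry it, because Timm13 and Timm10 of this set are among the members with the largest differences between the genotypes. Sequences are coding sequence of GENCODE M21 on GRCm38, 5′ to 3′, with the cysteine codons in capitals.
Timm13: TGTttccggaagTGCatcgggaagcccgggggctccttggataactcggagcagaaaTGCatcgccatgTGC
Timm8a1: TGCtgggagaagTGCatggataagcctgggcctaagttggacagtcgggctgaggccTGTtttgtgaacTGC
Timm8a2: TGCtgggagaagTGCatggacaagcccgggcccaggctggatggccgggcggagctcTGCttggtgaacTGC
Timm8b: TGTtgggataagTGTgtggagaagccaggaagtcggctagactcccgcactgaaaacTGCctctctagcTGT
Timm9: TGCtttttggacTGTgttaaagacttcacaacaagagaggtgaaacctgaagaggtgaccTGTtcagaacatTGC
Timm10: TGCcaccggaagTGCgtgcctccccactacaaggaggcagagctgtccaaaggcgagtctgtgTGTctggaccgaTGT
The motifs are separated by 14 codons in Timm13 and the Timm8 genes, by 15 in Timm9 and by 16 in Timm10. Of 25 protein-coding members, 6 (24.0%) held the pattern, counted with 11 to 17 codons between the motifs, against 443 of 21562 coding genes (2.05%). It was not found in the longest coding sequence of Timm10b. Over these 72 bases, Timm8a1 and Timm8a2 were identical at 81.9% of positions, while Timm13 and Timm8b were identical at 36 of them.

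RetSat itself, given in CPM (read counts scaled to a common library size, here by TMM), fell to 18.01 to 38.98 CPM in Cre+ mice, against 150.8 to 254.7 CPM in Cre- mice (log2 fold change -2.95, edgeR adjusted p = 0.00402), as the labels say. The libraries held 96991071 to 110293494 counts in Cre+ mice, against 91903095 to 132499312 counts in Cre- mice. mtDNA-encoded genes took 17.7 to 19.4% of counts in Cre+ mice, against 19.7 to 24.8% in Cre- mice. The 10 brown adipocyte markers, Ucp1 and Cidea among them, summed to 15585 to 19510 CPM in Cre+ mice, against 15772 to 19417 CPM in Cre- mice. Of these 10, 9 had a log2 fold change above 0 with a median of 0.16, where 50.3% of all genes were above 0. Prdm16 (0.52), Adrb3 (0.45) and Plin1 (0.19), 3 of the 10, were higher in Cre+ mice at an unadjusted p under 0.05 with edgeR. Of all genes 6.4% were higher at that p. The 10 markers thus leaned the same way as the import genes, and their part in the values of the import genes was not tested. The 10 skeletal muscle markers summed to 276 CPM in Cre+ replicate 4 and 1.47 to 13.5 CPM in the other Cre+ mice, against 560 CPM in Cre- replicate 2 and 1.45 to 20.8 CPM in the other Cre- mice. Macrophage markers summed to 27.2 to 44.8 and 29.7 to 42.4 CPM, endothelial markers to 473 to 596 and 469.9 to 557 CPM, white adipocyte markers to 37.9 to 140.2 and 58.9 to 72.9 CPM, and B cell markers to 1.56 to 3.00 and 0.927 to 2.12 CPM, in each case in Cre+ and Cre- mice. At that unadjusted p, 3 of the 5 B cell markers were higher in Cre+ mice, and of the 5 endothelial markers 1 was higher and 1 lower. Of these 40 markers 38 could be tested and 0 were called by edgeR. The part of other cell types in the comparisons was not tested beyond leaving out the libraries richest in muscle transcripts.

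Expressed per kb of annotated exon, a rough scale for setting genes against each other, the levels of the import genes spanned a wide range. The highest was Timm8b, a small TIM, with 113 ± 9.66 CPM per kb in Cre+ mice, against 105 ± 10.9 CPM per kb in Cre- mice (SD, n = 5 each). It was followed by Timm13 with 96.8 CPM per kb in Cre+ mice, against 80.4 in Cre- mice, and by the small TOM subunits Tomm7 (76.6 and 69.2) and Tomm5 (63.8 and 54.6). The exons of these 4 genes add up to 518 to 1371 bases. The central receptor and organizer Tomm22 had 51.4 and 49.8 CPM per kb in Cre+ and Cre- mice, the pore Tomm40 had 21.3 and 18.4, and the presequence receptor Tomm20 had 8.38 and 7.92. The receptor Tomm70a, which takes up carrier precursors, had 12.6 and 12.4 CPM per kb. In the TIM23 complex the motor anchor Timm44 and the receptor Timm50 had 45.3 and 40.1 CPM per kb in Cre+ mice, against 43.5 and 38.5 in Cre- mice. The channel subunits Timm23 and Timm17a had 22.4 and 16.9 CPM per kb in Cre+ mice, against 19.985 and 16.1 in Cre- mice. In the TIM22 complex Timm29 had 21.5 and 21.2, the channel Timm22 10.9 and 9.56, and Timm10b 3.95 and 3.70 CPM per kb in Cre+ and Cre- mice. The order from high to low differed between the groups only by exchanges of neighbours, namely Timm44 with Timm10, Timm29 with Timm23 and Timm9 with Timm22. Exon length here counts all annotated exons of a gene, and for some genes it far exceeds the longest coding transcript. Tomm40 has 4513 exon bases and a longest coding transcript of 1646 bases, Timm44 3664 and 1790, but Tomm22 1651 and 1569. The order of genes, such as Tomm40 below Tomm22, thus depends on the length used.

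**Figure D1:**
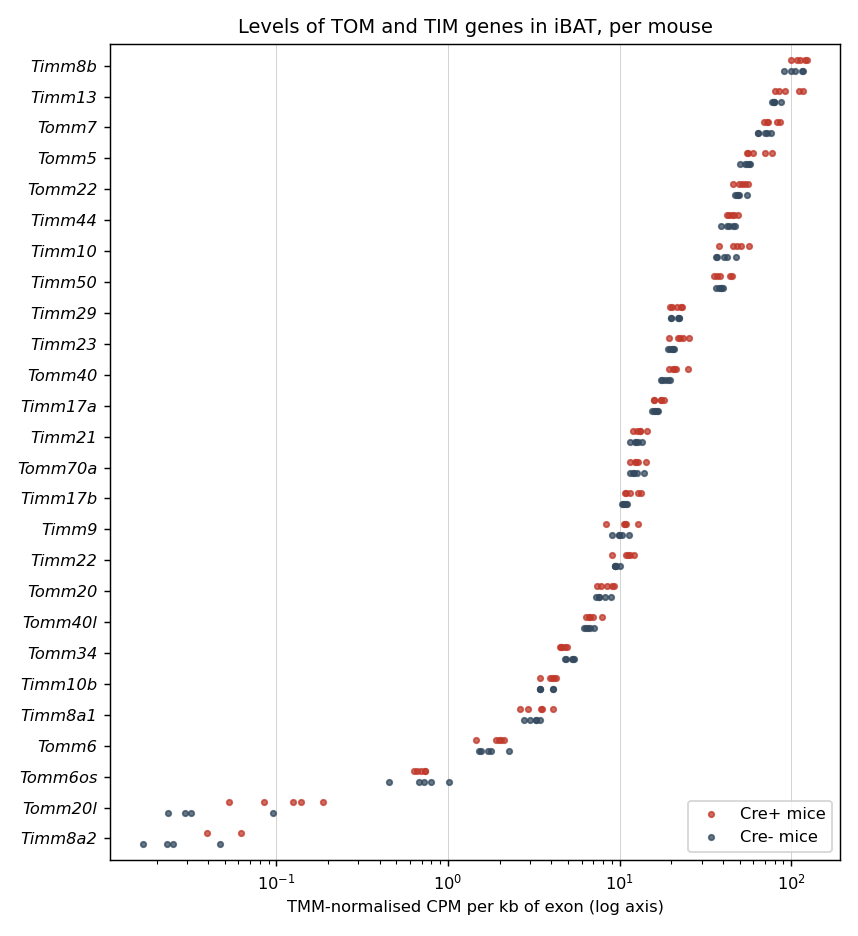
Level of each TOM and TIM gene per kb of exon (x axis, TMM-scaled CPM per kb, log axis), with a point for each mouse, Cre+ in red above Cre- in blue. Counts of 0 (4 libraries for Timm8a2, 1 for Tomm20l) cannot be drawn on a log axis, and the mean in Cre+ mice runs from 113 CPM per kb for Timm8b to 0.0204 for Timm8a2.

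Of the 26 members, 24 passed the filter on low counts. Tomm20l, a relative of Tomm20, did not pass, with 10, 4, 14, 10 and 7 counts in Cre+ mice and 3, 0, 2, 8 and 2 counts in Cre- mice. Timm8a2 had 4, 6, 0, 0 and 0 counts in Cre+ mice, against 2, 2, 0, 5 and 2 counts in Cre- mice. The counts of other members are limited by overlaps and copies. Tomm6 shares 76.0% of its exon bases with Gm21981 on the same strand, and reads that fall in both to the same extent were not assigned and are missing from its 1.89 CPM per kb in Cre+ mice and 1.76 in Cre- mice. For Timm23, 90.8% of all 51-base stretches also occur in Gm10273, which itself had 0 to 2 counts a library in Cre+ mice and 0 counts in Cre- mice. Tomm40l, a relative of Tomm40, has 64.3% of its exon bases opposite Nr1i3, and strand was not used in counting, so that reads lying wholly in both genes were not assigned. For Timm8a1, 41.0% of 51-base stretches also occur in Gm9797, and reads that align to several places were not counted. The levels of these members are thus understated in both groups.

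For the comparison of genotypes, 0 of the 24 tested import genes passed an adjusted p under 0.05 in edgeR's quasi-likelihood test, where 29 of 17690 genes (0.164%) were called in all, 0.0339% of genes higher and 0.13% lower. DESeq2 and limma voom also called 0 members, with 2.28% and 0.837% of all genes called. At an unadjusted p under 0.05, 6 members were higher in Cre+ mice and 0 lower with edgeR, against 6.4% of all genes higher and 5.95% lower, 12.3% in either direction. With DESeq2 4 members were higher at that p, where 4.1% of all genes were, and with voom 8 were higher and 1 lower, where 8.06% of all genes were higher. A log2 fold change above 0 was found for 22 of 24 members, against 50.3% of all genes tested. The differences were small, with a median log2 fold change of 0.08 (range -0.14 to 0.27), against 0.00 over all genes, and a median size of 0.09, below the 0.14 of all genes. Of the 17690 genes, 7921 had a mean of at least 10 CPM, and sizes were not compared at matched levels. With TMM scaling the groups of 0 members failed to overlap, against 1.2% of genes with all Cre+ above all Cre- mice and 1.47% with all below, 2.67% in either direction.

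The 6 members of the outer gate and pore, Tomm40, Tomm40l, Tomm22, Tomm5, Tomm6 and Tomm7, all had positive values, with a median log2 fold change of 0.13. Tomm40 (ENSMUSG00000002984.18, GRCm39 chromosome 7, 19435238 to 19449363), the pore itself, had 96.5, 87.2, 91.8, 92.9 and 112.1 CPM in Cre+ mice, against 78.2, 82.6, 86.4, 89.2 and 79.7 CPM in Cre- mice. The ranges overlapped because Cre+ replicate 2 lay below Cre- replicate 4. The means were 96.1 ± 9.52 CPM in Cre+ mice, against 83.2 ± 4.56 CPM in Cre- mice (SD, n = 5 each), with a log2 fold change of 0.21 (SE 0.07) and edgeR adjusted p = 0.279, the smallest of all members. Tomm5 (ENSMUSG00000078713.9, chromosome 4, 45105208 to 45108114), a small subunit at the pore, had 61.0, 52.0, 48.2, 48.5 and 67.1 CPM in Cre+ mice, against 48.0, 49.3, 43.5, 49.8 and 46.6 CPM in Cre- mice. Cre+ replicates 1 and 5 were high, and 2 of the others lay within the Cre- range. On the log2 scale it differed by 0.22 (SE 0.09, edgeR adjusted p = 0.361), and by 0.145 without Cre+ replicate 5. Tomm7, which acts on the stability of the complex, had 77.9 to 96.4 CPM in Cre+ mice, against 71.6 to 85.8 CPM in Cre- mice with a log2 fold change of 0.15. Tomm22, Tomm40l and Tomm6 had 0.05, 0.07 and 0.10 on the same scale.

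For the receptors of the outer membrane, the log2 fold change was 0.08 (SE 0.08) for Tomm20 and 0.03 (SE 0.07) for Tomm70a. Tomm34, a cytosolic protein that in human cells binds the chaperones Hsp70 and Hsp90, was the only protein-coding member tested that had a negative value. It had 13.8, 13.6, 14.6, 14.9 and 14.1 CPM in Cre+ mice, against 14.7, 14.7, 16.6, 15.9 and 16.2 CPM in Cre- mice. The groups overlapped narrowly, with Cre+ replicate 4 above the lowest Cre- mice, and the log2 fold change was -0.14 (SE 0.07, edgeR adjusted p = 0.474). The antisense RNA Tomm6os had 1.87 to 2.17 CPM in Cre+ mice, against 1.33 to 2.97 CPM in Cre- mice, with a log2 fold change of -0.08 (SE 0.18). Of its exon bases 41.5% overlap Prickle4 and 32.5% Gm21981.

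All 5 small TIM chaperones that could be tested had positive values, with a median log2 fold change of 0.10. Timm13 (ENSMUSG00000020219.8, chromosome 10, 80735284 to 80736803), which forms a chaperone complex with Tim8 proteins, had 151.4, 109.4, 116.6, 126.2 and 160.3 CPM in Cre+ mice, against 108.0, 119.9, 106.2, 109.3 and 108.0 CPM in Cre- mice. Cre+ replicates 1, 4 and 5 lay above all Cre- mice, and replicates 2 and 3 lay within their range. The means were 133 ± 22.1 CPM and 110.3 ± 5.50 CPM in Cre+ and Cre- mice (SD, n = 5 each), and the log2 fold change of 0.27 (SE 0.10, edgeR adjusted p = 0.298) was the highest of all members when all libraries were used. Timm10 (ENSMUSG00000027076.11, chromosome 2, 84657341 to 84660557), the partner of Timm9 in carrier transport, had 41.5, 39.5, 37.2, 31.0 and 46.0 CPM in Cre+ mice, against 30.2, 33.2, 29.7, 38.7 and 34.5 CPM in Cre- mice. Cre+ replicate 4 lay low among the Cre- mice, and replicate 3 below the highest of them. On the log2 scale it differed by 0.23 (SE 0.10, edgeR adjusted p = 0.391). Timm9 had 0.08, Timm8b 0.10 and Timm8a1 0.08. The human relative of Timm8a1, TIMM8A, is the gene mutated in deafness-dystonia syndrome.

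In the TIM22 complex, Timm22 (ENSMUSG00000020843.16, chromosome 11, 76297778 to 76307118) had 36.4, 35.7, 34.7, 28.9 and 38.5 CPM in Cre+ mice, against 30.03, 30.16, 30.03, 32.07 and 29.8 CPM in Cre- mice. In Cre+ replicate 4 it lay below every Cre- mouse, and the other Cre+ mice lay above all of them. The log2 fold change was 0.19 (SE 0.08, edgeR adjusted p = 0.326). Timm10b and Timm29, subunits known from human TIM22, had 0.10 and 0.01. Among the 6 genes of TIM23, all with positive values and a median log2 fold change of 0.06, the channel subunit Timm23 (ENSMUSG00000013701.14, chromosome 14, 31902119 to 31923855) had 41.6, 39.0, 34.4, 40.1 and 45.5 CPM in Cre+ mice, against 36.9, 35.2, 34.1, 36.4 and 36.0 CPM in Cre- mice. All Cre+ mice but replicate 3 lay above the Cre- mice, with a log2 fold change of 0.17 (SE 0.07, edgeR adjusted p = 0.382). Timm17b had 27.4 to 33.8 CPM in Cre+ mice, against 26.4 to 28.2 CPM in Cre- mice and a log2 fold change of 0.15 (edgeR adjusted p = 0.431). The rest of the complex, Timm17a, Timm44, Timm50 and Timm21, had 0.05 to 0.07.

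**Figure D2:**
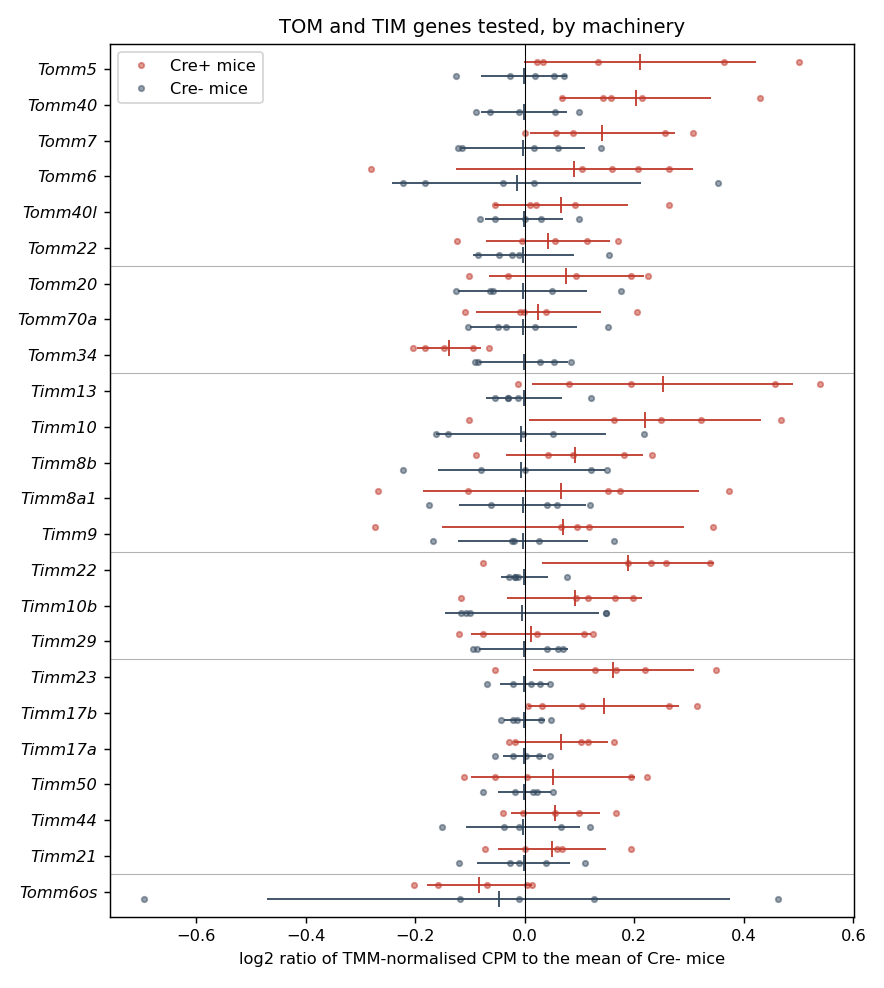
Log2 ratio of the TMM-scaled CPM of each tested gene to its mean in Cre- mice (x axis), genes grouped by complex down the page, with a point for each mouse, the mean as a tick and the SD as a line, Cre+ in red above Cre- in blue. The Cre+ means lie above 0 for 22 genes and below it for Tomm34 and Tomm6os, and the points of the groups overlap for every gene.

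The mice of a group were unequal. The median log2 ratio of the members to their Cre- mean was 0.16, 0.06, 0.04, -0.06 and 0.22 in the 5 Cre+ mice and -0.03, 0.04, -0.07, 0.03 and -0.01 in the 5 Cre- mice. Of the 24 members, 21 had their highest value in a Cre+ mouse, 15 of them in replicate 5. Lowest values were spread over both groups, with 14 in a Cre- mouse, 7 in Cre+ replicate 4 and 7 in Cre- replicate 3. The coefficient of variation was larger in Cre+ than in Cre- mice for 18 members. Without Cre+ replicate 1 or without replicate 5, 1 member of 24 was higher at an unadjusted p under 0.05 in place of 6, a share no larger than the 4.79% and 4.36% of all genes. Without Cre- replicate 3 or 5 there were 3 and 2 members, where 5.13% and 5.06% of all genes were higher. Without Cre+ replicate 4 the median log2 fold change was 0.13 and the smallest adjusted p 0.0589 with edgeR. Calls rose over all genes too, to 331 of 17997 genes, against 29 of 17690 with all libraries. Without the 3 Cre+ libraries whose identifier has an added letter, replicates 1, 4 and 5, the median was 0.04, with 20 positive values and 1 member higher at that p, where 4.16% of all genes were. Timm13 was then at 0.0309, Tomm5 at 0.074, Timm23 at 0.0345, Timm17b at 0.0146 and Tomm40 at 0.101, each less than when all libraries were used, while Timm10 (0.201) and Timm22 (0.205) moved little and Timm9 (0.207) became the highest. Without Cre+ replicate 4 and Cre- replicate 2, the richest in muscle transcripts, the median was 0.16 with 6 members at that p, where 7.32% of all genes were.

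The summed levels depended on the scaling. All 26 members together had 1521, 1418, 1398.5, 1379 and 1604 CPM in Cre+ mice, against 1328, 1404, 1314, 1393 and 1364 CPM in Cre- mice after TMM scaling, 7.63% higher on average in Cre+ mice, with overlap. The difference was 7.31% for TOM and 7.81% for TIM genes. When counts were divided by the library total alone, the sums were 1426.5 to 1664 CPM in Cre+ mice, against 1308 to 1343 CPM in Cre- mice, 13.3% higher and without overlap. The log2 fold changes of all genes moved by 0.07 between these scalings. Unscaled by TMM, Tomm5 and Tomm40 had all Cre+ above all Cre- mice, 2 members where 3.11% of all genes tested did so and 0.667% had all Cre+ below. Tomm5 had 49.4 to 69.7 CPM in Cre+ mice, against 43.9 to 47.3 CPM in Cre- mice on that scale, and Tomm40 had 87.8 to 116.3 and 77.1 to 87.3 CPM.

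Members with fewer exon bases tended to have larger log2 fold changes, although Tomm40 and Timm22 have 4513 and 3183 exon bases. Their longest coding transcripts have 1646 and 2817 bases, so that Tomm40 is long only by its annotated exons. Across the 24 members the log2 fold change had a Spearman rho of -0.46 with exon length, and across 7921 genes of at least 10 CPM it was -0.20, with genes of a sample sharing their library and so not being independent. In Cre+ replicates 1 and 5 the genes of up to 1 kb had a median log2 ratio to Cre- mice of 0.09 and 0.16, while it was -0.05 to -0.00 in the other Cre+ mice and -0.12 to 0.08 in Cre- mice. Short genes and import genes were thus high in the same libraries. With an offset for the length trend of each library, an alternative chosen after seeing the data, the median of the members was 0.08 with 21 positive values, and 4 members, Tomm40, Timm13, Timm22 and Tomm5, were higher at an unadjusted p under 0.05, where 6.26% of all genes were, and 0 were called by edgeR. Their log2 fold changes were then 0.21, 0.21, 0.18 and 0.16. The offset used exon bases, 4513 for Tomm40, and an offset by transcript length was not tested.

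**Figure D3:**
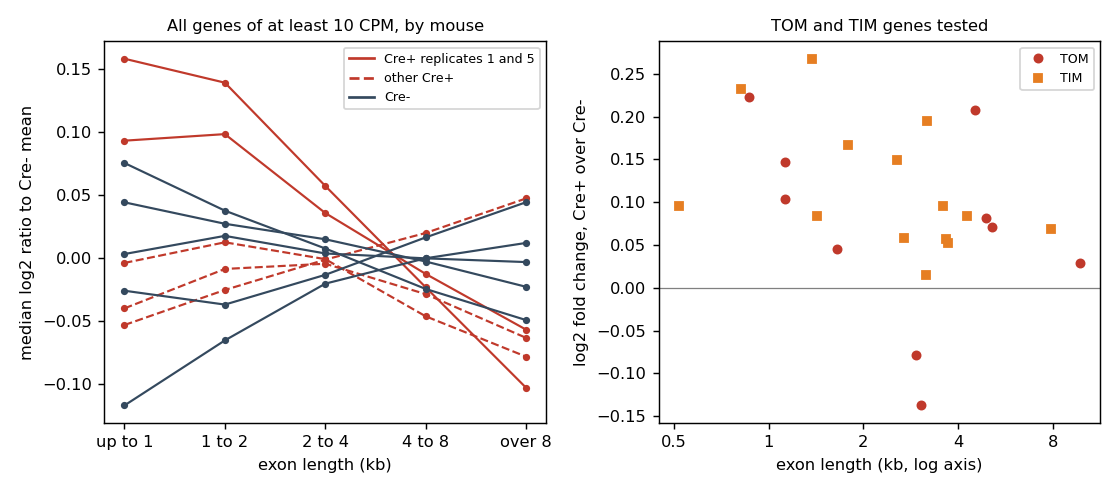
Left, median log2 ratio to the Cre- mean (y axis) of genes of at least 10 CPM in bins of exon length (x axis, kb), with a line for each mouse, and right, log2 fold change (y axis) against exon length (x axis, kb, log axis) of the 24 TOM and TIM genes tested. Short genes lie high in Cre+ replicates 5 and 1, at 0.16 and 0.09 up to 1 kb, and low in Cre- replicate 3, at -0.12.

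Some complexes can be built with either of a pair of related subunits, and a share within a library does not depend on the scaling of that library. It can depend on a trend with exon length where the subunits differ in length. By length-corrected counts, Tomm40l made up 24.5 ± 0.731% of Tomm40l and Tomm40 in Cre+ mice and 26.3 ± 1.06% in Cre- mice (SD, n = 5 each), a difference of -1.79 percentage points (two-sided exact permutation test, p = 0.0317, adjusted p = 0.0952 over 3 pairs). The share was 23.5 to 25.5% in Cre+ mice, against 24.5 to 27.1% in Cre- mice, and overlapped through Cre- replicate 3. It rests mainly on the part of Tomm40l that is not opposite Nr1i3. That part was divided by the whole exon length, which lowers the share in both groups. Tomm40 was divided by 4513 exon bases, against 1646 bases in its longest coding transcript, which may raise the share. The size of the share is thus uncertain in both groups. Timm17a made up 58.9 ± 1.75% of Timm17a and Timm17b in Cre+ and 60.2 ± 0.588% in Cre- mice (exact permutation p = 0.167, adjusted p = 0.25). These genes have 7893 and 2557 exon bases. The share of Timm17a was lowest in Cre+ replicates 1 (56.7%) and 5 (57.7%), where short genes were high. The part of exon length in this share was not tested. Timm8a1 made up 2.86 ± 0.346% of Timm8a1 and Timm8b in Cre+ and 2.91 ± 0.252% in Cre- mice (exact permutation p = 0.706, adjusted p = 0.706), with Timm8a1 understated by its copy. The smallest p such a test can give here is 0.00794. Without Cre- replicate 3 the adjusted p for Tomm40l was 0.0476, and likewise 0.0476 for Timm17a without Cre+ replicate 4 (exact permutation test). In each case the library left out was the one through which the groups overlapped. The groups then separated fully and the test gave the smallest p possible with the mice left. These values were thus fixed by the choice of library and are no support for a difference.

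Around the translocases, 34 further import genes in 6 lists were looked at in the same test. Cytosolic chaperones hand precursors to the receptors. Of these 5, Hsp90aa1 fell to 147 ± 30.5 CPM in Cre+ mice, against 314 ± 43.1 CPM in Cre- mice (edgeR adjusted p = 0.0135, with -1.09 as log2 fold change and an SE of 0.15). Hsp90ab1 fell to 1035 ± 161 CPM in Cre+ mice, against 1569 ± 116 CPM in Cre- mice (-0.60, SE 0.11, edgeR adjusted p = 0.0435). These 2 of 34 stand beside 0.13% of all genes called lower. Both are from the list of 5 cytosolic chaperones, and the paper already reports them among the genes lower in iBAT of Cre+ mice. The lists were chosen with earlier results of these data known, so the share is no test of them. The co-chaperone Dnaja1 (-1.07) and the constitutive Hsp70 gene Hspa8 (-0.71) did not pass with edgeR, with adjusted p = 0.0631 and 0.156, and were called by DESeq2. Without Cre+ replicate 1, or without the 3 libraries with an added letter, 0 of the 34 were called lower, and 1 was called without Cre+ replicate 2 or 5 or without any single Cre- library.

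The other 29 genes, inside mitochondria or in their membranes, had 0 calls by edgeR, DESeq2 or voom and a median log2 fold change of 0.06. At an unadjusted p under 0.05 with edgeR, 1 was higher and 3 were lower, 13.8% in either direction, near the 12.3% of all genes. The one higher was Romo1, in yeast a partner of TIM23 under the name Mgr2, with a log2 fold change of 0.23 (SE 0.10, edgeR adjusted p = 0.355). The lower genes, Xpnpep3 (-0.30, SE 0.09, edgeR adjusted p = 0.210), Mipep (-0.17) and Pitrm1 (-0.13), are from the list of 7 peptidases that trim or degrade imported presequences, which had a median of -0.09. The medians were 0.12 for the 7 genes of the import motor, 0.10 for the 4 of the sorting and assembly machinery that builds Tom40 into the outer membrane, 0.11 for the 3 of the disulfide relay that oxidizes the twin cysteines of small TIM proteins, and 0.07 for the 8 other insertion factors.

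**Figure D4:**
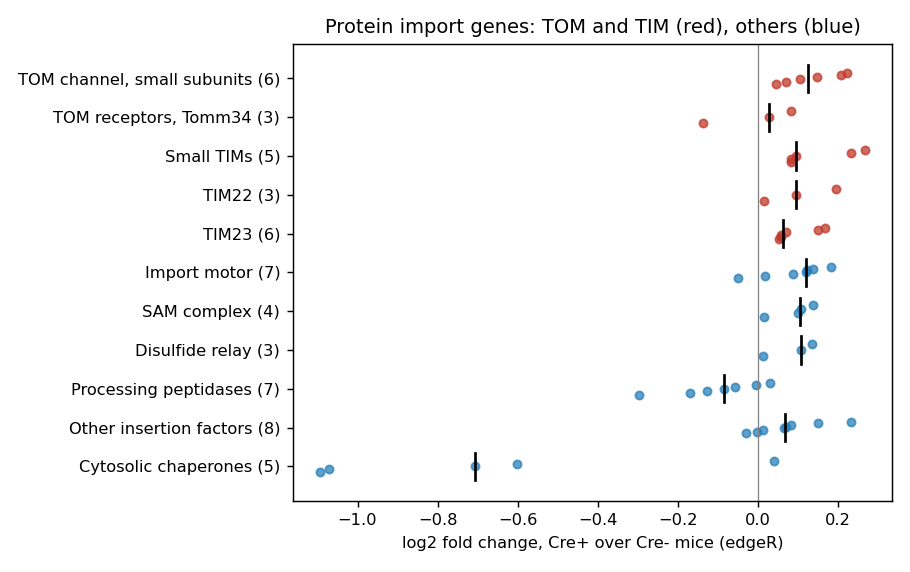
Log2 fold change, Cre+ over Cre- mice (x axis), with a point for each tested gene and a black bar for the median, by import complex or step down the page with the number of genes in brackets, and Tomm6os left out. The TOM and TIM genes lie between -0.14 and 0.27, Hsp90aa1 at -1.09, and 6 of 7 processing peptidases below 0.

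Nuclear respiratory factor 1 is known as a regulator of several import genes, so promoters from RefSeq (GRCm38.p6) were searched on both strands for its core. This palindrome of 10 letters was in 0 of 21 tested members with a promoter entry, against 2.1% of 11863 tested genes. A relaxed form with any base at the fifth letter, which includes the first, was in 2 of 21 (9.52%), against 10.3% of tested genes. The matches are shown for their place, with the matching letters in capitals. That of Tomm20 lies before the start (chr8:126945922-126946021, minus strand) and that of Timm8b after it (chr9:50603909-50603938, plus strand).
Tomm20: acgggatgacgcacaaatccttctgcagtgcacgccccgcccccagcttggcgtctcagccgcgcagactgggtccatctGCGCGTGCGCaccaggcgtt
Timm8b: cgctgccaccGCGCGTGCGCaccccagcga
Neither gene had an unadjusted p under 0.05, with log2 fold changes of 0.08 for Tomm20 and 0.10 for Timm8b.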

How the data were processed

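The deposited values are raw counts per gene. According to the authors' methods and processing notes, reads of iBAT RNA were trimmed with Trimmomatic, aligned to GRCm39 with STAR and counted with featureCounts 2.0.1 over exons. Per the file headers GENCODE M28 was used, mates were counted singly, strand was not used and multi-mapping reads were not counted, so that genes with copies or overlaps are understated. Symbols matched 52081 genes (94.0%).

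Genotypes were read from the labels. Tests were run in R 4.3.3 using edgeR 4.0.16, with TMM, filterByExpr (minimum count 10, minimum total 15), robust quasi-likelihood F tests and Benjamini-Hochberg adjustment over 17690 genes, with a threshold of 0.05. The edgeR p-values weigh a difference between the groups against the spread between these mice, with information shared across genes. Levels were given as CPM per kb in place of TPM, because the mtDNA share differed between groups. Alternatives were DESeq2 1.42.0, limma 3.58.1 voom, DESeq2 size factors, mtDNA genes left out of the scaling, other filters, the replicate number as a block, leaving out libraries and a length offset. Every member is named, and of each other import list the genes at an unadjusted p under 0.05 with edgeR, at most 4 a list. Members and lists were chosen with earlier results of these data known. Tests were also run on simulated counts, with planted changes larger than any member showed. Recovery of differences of the size seen here was thus not checked.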

Additional observations from a re-analysis of the deposited data

Results flagged for a closer look

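Of 54 groups of 5 mice, 2 had a mouse far from the others, where chance gives about 1 in 20. Timm13 was at 119.9 CPM in Cre- replicate 2, against 106.2 to 109.3 CPM in the other Cre- mice. Timm22 was at 32.07 CPM in Cre- replicate 4, against 29.8 to 30.2 CPM in the other Cre- mice.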

How the results depend on the processing

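Under all alternatives 0 TOM and TIM genes were called, and 20 to 23 of the 24 log2 fold changes stayed above 0. The number higher at an unadjusted p under 0.05, 6 with edgeR, was 1 without the 3 libraries with an added letter and 1 to 7 without single libraries. With the replicate number as a block it was 3, where 5.52% of all genes were higher. Mice numbered 1, 3 and 5 deviated together (r = 0.354, 0.186 and 0.233) and each correlated best with its own number, while those numbered 2 and 4 did not (r = -0.189 and -0.259), so that the numbers were not taken as pairs. With voom 1 gene was lower. The other import genes called lower, 2 with edgeR, were 4 with DESeq2, 3 with voom, 0 without the libraries with an added letter, 3 without Cre+ replicate 4 and Cre- replicate 2, and 0 to 3 without single libraries.

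Signs turned for 6 genes, and the cause was not tested. Tomm6os was at 0.036 with voom, 0.00537 without the libraries with an added letter, 0.0603 without the 2 libraries richest in muscle transcripts and -0.211 to 0.0662 without single libraries. Timm29 was at -0.00263 with the length offset and -0.0126 to 0.046 without single libraries, and Tomm70a at -0.0179 to 0.0701. Without the libraries with an added letter, Timm17a was at -0.028, Timm50 at -0.0861 and Tomm6 at -0.0472. The difference in share was -1.85 to -0.722 points for Timm17a, -2.25 to -1.55 for Tomm40l and -0.155 to 0.0322 for Timm8a1 without single libraries. Leaving out single libraries was not run for the summed CPM. With 5 mice a group, differences of the size seen here lie near the spread between mice, and genes under 3 CPM such as Tomm6 were measured least precisely.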
